A study of Mus musculus with 3 samples.

Results

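Terminal exons with tandem 3′ ends are last exons that begin at the same splice acceptor and stop at several separate 3′ ends. The isoforms usually share the end of the coding sequence and differ in how far the 3′ UTR runs. Whether each end is a cleavage site was not tested. They were collected from full-length PacBio Iso-Seq transcript models of mouse CD4+ T cells. The multi-exon isoforms of 3 libraries were pooled and grouped by chromosome, strand and last acceptor, and neighbouring 3′ ends up to 24 nt apart were joined into a merged end. A group was taken when its outermost merged ends lay 100 nt or more apart. Of 8719 terminal exons, 1718 met this rule, which is 19.7% (95% exact Clopper-Pearson interval 18.9% to 20.6%). The members were thus chosen by the same measured ends that are described below, and the number of ends, their spacing and what each library holds are descriptions without a test. The 1718 terminal exons carried 4355 merged ends and 11949 isoforms and belonged to 1635 genes of the GENCODE M21 annotation, of which 53 genes had more than 1 and at most 4 such exons. A gene could be given for 1698 of them, and 1684 of these lay in protein-coding genes.

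The cells came from spleens and lymph nodes of wild-type male C57BL/6N mice. Naive CD4+ T cells were purified and labelled with the dye CellTrace Violet. Unstimulated cells were lysed on the same day, and the others were stimulated for 48 h with plate-bound anti-CD3 and soluble anti-CD28 antibodies. After 48 h, cells that had not divided (0 divisions) and cells after 2 divisions were sorted by the dilution of the dye. Each of the 3 conditions was sequenced as 1 library, so every difference below is one between libraries, and intervals cover counting error only. The models list exon positions without read counts. An isoform is therefore listed or not, and a missing end does not show that it was unused. Fewer cells using an end and less RNA per cell ending there cannot be told apart.

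The naive library listed 9047 multi-exon isoforms, the undivided library 11716 and the 2-division library 10253. Of these, 3196 (35.3%), 4656 (39.7%) and 4097 were isoforms at tandem terminal exons. Both activated libraries carry the label of 1 sequencing cell and the naive library that of another, so naive against activated cannot be told apart from the sequencing cell. All 9 CD4 T cell markers were listed in the naive library and 7 of 9 in each activated one, where Cd3g and Trac had no model. Of 6 B cell markers, 5 were listed with 20 isoforms in the naive library, and 2, Ighm and Cd74, with 6 and 5 isoforms in the undivided and 2-division libraries. The B cell gene Ms4a1 had a tandem terminal exon listed in the naive library alone. Myeloid markers gave 1 isoform, of Lyz2, in the naive library and none in the others, and CD8 T and NK cell markers gave 2, 2 and 1. The part of such cells in the results below was not tested.

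The 3′ end of most mRNAs is made by cleavage a short distance after a poly(A) signal, usually the hexamer AATAAA or its variant ATTAAA, followed by addition of the poly(A) tail. Where a terminal exon holds several such sites, the choice of a proximal site removes the 3′ UTR beyond it, together with any sites for miRNAs and RNA-binding proteins that lie there, while the encoded protein stays the same. Activated and proliferating T cells are known for a shift towards proximal sites in many genes.

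The last 30 nt before the proximal and the distal end are given for 5 genes whose ends recur in the results below, read 5′ to 3′ from the RefSeq GRCm38.p6 genome on the strand of the gene. Capitals mark the AATAAA or ATTAAA nearest the end, and the last base printed is the last base of the median isoform. The genes carry the identifiers ENSMUSG00000022884.15 (Eif4a2), ENSMUSG00000042502.10 (Cd2bp2), ENSMUSG00000008690.15 (Ncaph2), ENSMUSG00000024097.11 (Srsf7) and ENSMUSG00000004040.16 (Stat3). All 10 ends lie in annotated 3′ UTRs. They are shown so that the signals before both ends of a terminal exon can be compared.
Eif4a2 proximal, chr16:23113784-23113813, plus strand: atttattcAATAAAgtatttaattagtgct
Eif4a2 distal, chr16:23113917-23113946, plus strand: gaatgttaAATAAAattgtatattcacttt
Cd2bp2 proximal, chr7:127193676-127193705, minus strand: cccAATAAAagccttgactgtgcgatggcc
Cd2bp2 distal, chr7:127192026-127192055, minus strand: gtaagatAATAAAtttgtgtcaagctgctt
Ncaph2 proximal, chr15:89371550-89371579, plus strand: tggcctagcctAATAAAgtgttgctacccc
Ncaph2 distal, chr15:89372796-89372825, plus strand: gtctatttacAATAAAttgttctttatagg
Srsf7 proximal, chr17:80201313-80201342, minus strand: ttgacacgtttaAATAAAatgtttctaact
Srsf7 distal, chr17:80200089-80200118, minus strand: taagtttgttcAATAAAtctgcagagattg
Stat3 proximal, chr11:100888236-100888265, minus strand: ggactaagcccagaggttcctctttaaatt
Stat3 distal, chr11:100886817-100886846, minus strand: tttaacttccagaAATAAAgattatatagg
In 4 of the 5 genes both ends had a signal in these 30 nt, and in Stat3, a transcription factor of cytokine signaling, the signal stood before the distal end alone.

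Most tandem terminal exons had a simple layout. Exactly 2 merged ends were found at 1104 of 1718 (64.3%), 3 at 419 (24.4%), 4 at 126 (7.33%) and 5 at 46 (2.68%). A further 13 had 6 ends, 5 had 7, 2 had 8 and 3 had 9. The median distance between the outermost ends was 680 nt, with quartiles of 306 and 1300 nt and a longest distance of 6144 nt. Distances under 200 nt were found at 238 of them (13.9%) and distances of 2000 nt or more at 182 (10.6%). The terminal exon reached a median of 491.5 nt at the proximal end (quartiles 279 and 878 nt) and 1370.5 nt at the distal end (848.5 and 2095 nt), and the distal form was a median of 2.41 times as long as the proximal one. The 6644 terminal exons with 1 merged end had a median length of 767.5 nt. Of 1569 members whose terminal exon held an annotated stop codon, 1466 had the proximal end beyond it. Among these the 3′ UTR within the terminal exon was a median of 334 nt at the proximal end and 1165 nt at the distal end, so that the proximal form kept a median of 31.55% of the longer one. In the other 103 the proximal end lay at or before the stop codon.

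**Figure D1:**
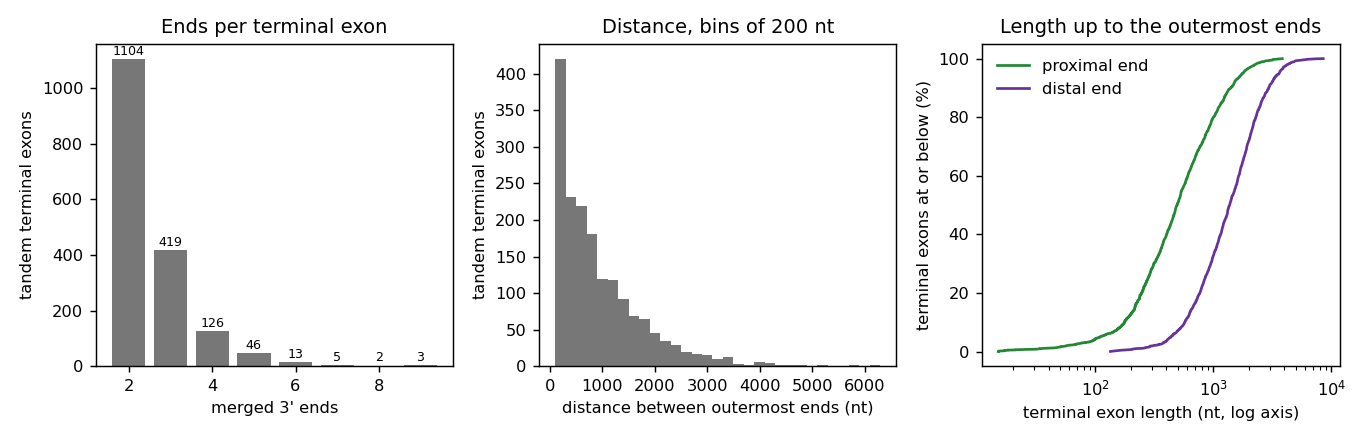
Number of merged 3′ ends per tandem terminal exon (left, bars with counts), distance between the outermost ends in nt (middle, histogram in bins of 200 nt) and cumulative share in percent of the terminal exon lengths at the proximal and distal end (right, log axis), pooled over the 3 libraries. Bars fall from 1104 members with 2 ends to 3 with 9, and the proximal and distal curves are offset, with medians of 491.5 and 1370.5 nt.

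The number of ends went with the number of isoforms that were seen. Tandem ends were found at 10.9% of terminal exons with 2 pooled isoforms (163 of 1493), 15.5% of those with 3 (208 of 1344), 34.8% of those with 4 or 5 (476 of 1368), 52.6% of those with 6 to 9 (556 of 1057) and 62.1% of those with 10 or more (315 of 507). The 2950 terminal exons with 1 isoform could not be members. Members with 2 ends had a median of 4 isoforms and those with 5 ends a median of 13. How many terminal exons would have tandem ends at a greater depth is therefore unknown.

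The exons with the most ends were those of Pnn, Ccdc50 and Capza2, with 9 each, and of Nabp1 and Cpsf6, with 8 each. Capza2, a subunit of the actin-capping protein, had all 9 ends between 818 and 1671 nt from the acceptor, of which 5 were found in all 3 libraries. Nabp1, a single-stranded DNA-binding protein of the DNA damage response, had 8 ends between 781 and 1921 nt. The naive library held the last of these alone with 2 isoforms. The undivided library held 7 ends with 14 isoforms and the 2-division library 6 ends with 10, so the naive library could show fewer ends. Cpsf6, a subunit of the cleavage factor that itself takes part in the choice of poly(A) sites, had ends from 158 to 4797 nt, and the 2 most distal ones, at 2180 and 4797 nt, were listed in the naive library alone with 1 isoform each. The longest distance, 6144 nt, was found at an exon of Rbm39, a splicing factor, where the ends at 682 nt, 1900 nt and 6826 nt lay in an exon upstream of the usual last one. The most distal end had 1 isoform, in the naive library, no poly(A) signal, and an A-rich stretch after it. Ccdc50 (ends from 198 to 5969 nt), the NF-kB subunit gene Rel (1052 to 6188 nt) and Ccdc93 (401 and 5269 nt) had a signal before the most distal end. On the same list, Gm8995 (1667 to 7426 nt) and Ms4a6b (3350 and 8525 nt) had none there and an A-rich stretch after it, with 1 isoform, in the naive library. At the other extreme, 9 members lay at the smallest admitted distance of 100 nt, among them Smc4 (34 and 134 nt), Gltp (1086 and 1186 nt) and Ifi203 (1777 and 1877 nt). Just outside the limit stood Pias1 (425 and 524 nt) and Phf11b (551 and 650 nt) at 99 nt and Wdr55 (619 and 717 nt) at 98 nt.

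Within a merged end, which by the rule joins neighbours up to 24 nt apart, positions in different libraries were close. Where a merged proximal end was found in both naive and undivided cells, its median position differed by 5 nt or less in 520 of 594 cases (87.5%), with a median difference of 0 nt. For distal ends this held for 687 of 769 (89.3%), and the other pairs of libraries gave 87.2% to 89.7%. A merged end was at most 66 nt wide, and 30 of 4355 were wider than 24 nt. Of the 4355 ends, 1468 (33.7%) were found in all 3 libraries, 1179 (27.1%) in 2 of them and 1708 (39.2%) in 1. Ends shared by the undivided and 2-division libraries alone numbered 779, against 266 shared by naive and undivided alone and 134 shared by naive and 2 divisions alone. Members are not independent of each other throughout, since 56 of them, in 25 genes, had an end within 24 nt of an end of another member with a different acceptor. Examples are 4 exons of the MHC class I gene H2-D1, whose values are uncertain because close relatives can share reads.

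The naive library more often held the distal end alone, and the activated libraries more often held several ends. Of the members seen in a library, the naive library held several ends at 734 of 1403 (52.3%, 95% interval 49.7% to 55.0%), the undivided library at 1136 of 1601 (71.0%, 68.7% to 73.2%) and the 2-division library at 983 of 1533 (64.1%, 61.7% to 66.5%). The distal end alone was held at 423 members (30.1%, 27.8% to 32.6%) in the naive library, 215 (13.4%, 11.8% to 15.2%) in undivided cells and 208 (13.6%, 11.9% to 15.4%) in 2-division cells. The proximal end alone was held at 187 (13.3%, 11.6% to 15.2%), 214 (13.4%, 11.7% to 15.1%) and 297 (19.4%, 17.4% to 21.4%). Counted with any other ends, the proximal end was present at 55.9% of the members seen in naive cells, 78.3% in undivided cells and 77.6% in 2-division cells, and the distal end at 79.4%, 77.3% and 68.8%. These intervals cover counting error only, and members and their ends were chosen from the same libraries, so no test is read from them.

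The libraries differed in how many isoforms they listed at these exons, a mean of 2.28 per member seen in naive cells, 2.91 in undivided cells and 2.67 in 2-division cells. Where a library listed exactly 1 isoform at a member, it could show only 1 end. Such members are a different set in each library. Their further ends came from the other libraries by the rule, so the shares below are a description and not a matched comparison. That isoform ended at the distal end in 351 of 551 members in the naive library (63.7%, 59.5% to 67.7%), in 164 of 356 in undivided cells (46.1%, 40.8% to 51.4%) and in 163 of 435 in 2-division cells (37.5%, 32.9% to 42.2%). It ended at the proximal end in 151 (27.4%, 23.7% to 31.3%), 160 (44.9%, 39.7% to 50.3%) and 232 (53.3%, 48.5% to 58.1%), and in the rest at an end between them.

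**Figure D2:**
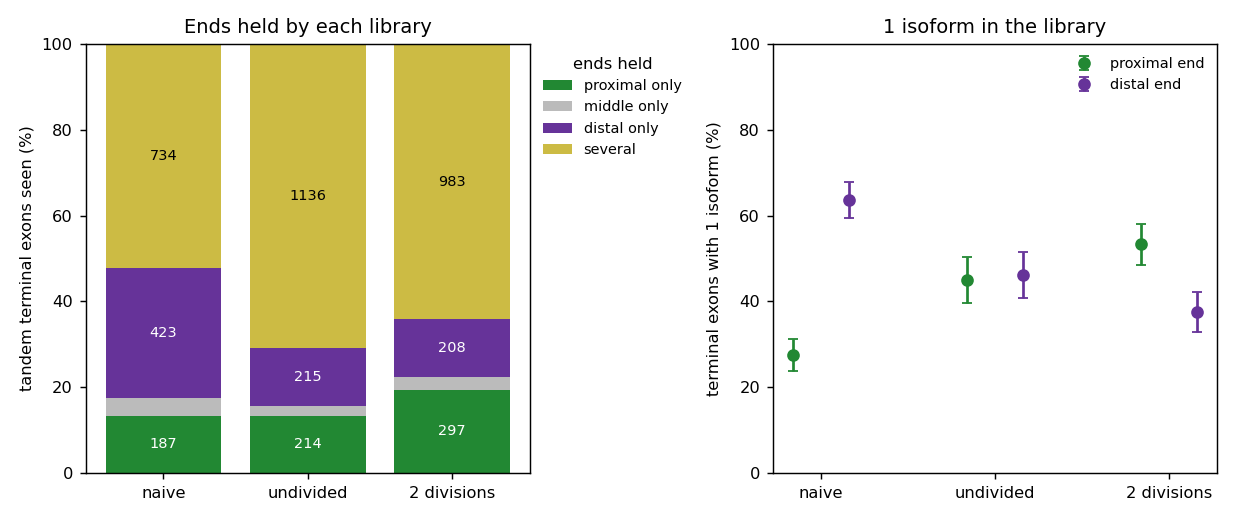
Left, share in percent of the tandem terminal exons seen in each library that it held at the proximal end alone, at a middle end alone, at the distal end alone or at several ends, with numbers of terminal exons in the bars. Right, for terminal exons with 1 isoform in the library, the share in percent that ended at the proximal and at the distal end, with 95% Clopper-Pearson intervals. In naive cells 63.7% ended at the distal end and 27.4% at the proximal end, and in 2-division cells 37.5% and 53.3%.

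The members were chosen on all 3 libraries, so the same was read at terminal exons whose outermost ends had been set without the library described. Where both activated libraries held both the proximal and the distal end, the naive library held both at 230 of 450 terminal exons (51.1%), the distal end alone at 164 (36.4%, 32.0% to 41.1%) and the proximal end alone at 46 (10.2%, 7.58% to 13.4%). Where naive and 2-division cells held both, the undivided library held both at 223 of 264 (84.5%), the distal end alone at 17 (6.44%, 3.80% to 10.1%) and the proximal end alone at 23 (8.71%, 5.60% to 12.8%). Where naive and undivided cells held both, the 2-division library held both at 227 of 289 (78.5%), the distal end alone at 18 (6.23%, 3.73% to 9.67%) and the proximal end alone at 42 (14.5%, 10.7% to 19.1%). The 3 sets of terminal exons differ, because each was set by the other libraries. The naive library listed fewest isoforms per member, and the sets of both activated libraries required both ends in it. These shares are therefore not compared between libraries. Within its own set, the naive library lacked the proximal end more often than the distal one. The 2-division library lacked the distal end more often, and in the undivided library the 2 shares had overlapping intervals. With ends taken from the annotation in place of any library, all 3 libraries held the distal end alone more often than the proximal end alone, at 1206 against 373 of 2533 exons in the naive library, 1370 against 524 of 3049 in the undivided one and 1201 against 486 of 2810 in the 2-division one. The lean of the 2-division library towards the proximal end was thus not found at annotated ends. These are a different set of exons, where that library held both ends at 3.20% against 78.5% above. At terminal exons with annotated tandem ends, 27.5% of the isoforms at an outermost end were at the proximal one in the naive library (712 of 2592, 25.8% to 29.2%), 30.8% in undivided cells (1017 of 3307, 29.2% to 32.4%) and 31.8% in 2-division cells (911 of 2869, 30.1% to 33.5%). The naive and undivided intervals overlapped and those of naive cells and 2 divisions did not. They cover counting error only, and no test is read from them. Both ends were held together at 2.80%, 2.85% and 3.20% of these exons.

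**Figure D3:**
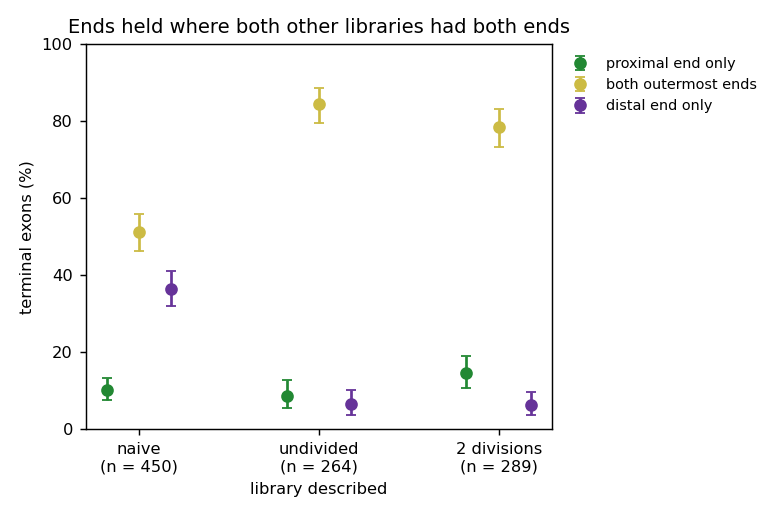
Share in percent of terminal exons at which the library named on the x axis held the proximal end alone, both outermost ends or the distal end alone, among terminal exons where both other libraries held both ends. Points are 1 library each with 95% Clopper-Pearson intervals. The naive library held the distal end alone at 36.4% of 450 terminal exons, the activated libraries at 6.44% of 264 and 6.23% of 289. The sets of terminal exons differ between the libraries.

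Among the 1104 members with 2 merged ends, 680 had isoforms in all 3 libraries. All 3 libraries held both ends at 145 of them. At 126 the naive library held the distal end alone while both activated libraries held the proximal end, and at 41 the naive library held the proximal end alone while both activated libraries held the distal end. The activated libraries share the naive library in this count. Of the 680 exons, the naive library held the distal end at 562 and the proximal end at 407. The 126 and the 41 thus start from unequal numbers of exons, and no direction is read from them. The naive library also listed fewest isoforms per member. A complete exchange was rare. At 13 exons the distal end was found in naive cells alone and the proximal end in both activated libraries alone, and at 6 exons it was the other way round. Where the naive library held both ends, both activated libraries held the proximal end alone at 63 exons and the distal end alone at 21.

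The exons with most isoforms among the 126 belonged to Eif4a2, Snrnp70, Cd2bp2, Fam169b, Tpm4, Hnrnpa1 and Cenpa, among others. Eif4a2 encodes an RNA helicase of translation initiation, and its exon from 23113167 on chromosome 16 ended at 647 or 780 nt. The proximal end had 0, 6 and 2 isoforms in the naive, undivided and 2-division libraries, and the distal end had 4, 4 and 3. Isoform numbers given as 3 values below follow this order of libraries. Cd2bp2, which binds the tail of the T cell surface protein CD2 and is part of a spliceosomal particle, had a short end at 255 nt with 0, 2 and 2 isoforms and a long one at 1905 nt with 2, 5 and 2. Hnrnpa1, an RNA-binding protein of splicing, had 0, 1 and 1 isoforms at 334 nt and 1, 4 and 3 at 700 nt. Cenpa, the centromeric histone H3 variant, had 0, 2 and 2 at 367 nt and 1, 2 and 2 at 745 nt. In all 4 of these genes the distal end was kept in every library, and the naive library differed by the absence of the shorter form. It also listed fewer isoforms at these exons than either activated library, 4 against 10 and 5 for Eif4a2, 2 against 7 and 4 for Cd2bp2, 1 against 5 and 4 for Hnrnpa1 and 1 against 4 and 4 for Cenpa.

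The 13 exons of complete exchange towards the proximal end, singled out after their values were seen, included Wdr4, Mllt3, Hook3, Fbxo42, Hmox2, Haus8, Nedd4, Pgm2 and Tnfsf8. Each rested on 1 isoform in naive cells. Nedd4, a ubiquitin ligase, ended at 2716 nt in naive cells and at 108 nt in both activated libraries, 5 nt past its stop codon. Fbxo42, a substrate receptor of a ubiquitin ligase, ended at 4614 nt in naive cells and 1349 nt in the activated libraries, with AATAAA before either end. The motor adaptor Hook3 ended at 3122 nt in naive cells, before an A-rich stretch and without a signal, and at 376 nt in both activated libraries, 3 nt from an annotated end.

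The opposite layout was led by Nfkb2, Eif3c, Ncaph2, Tor1aip2, Eef1g, Nasp, Tnpo1 and Rpl13a. Nfkb2, a subunit of NF-kB, ended at 254 nt with 2, 9 and 9 isoforms in naive, undivided and 2-division cells, and at 601 nt with 0, 1 and 1. Eif3c, a subunit of initiation factor eIF3, had 1, 5 and 7 isoforms at 168 nt and 0, 1 and 2 at 615 nt. Ncaph2, a subunit of condensin II, had 3, 4 and 5 at 269 nt and 0, 2 and 1 at 1515 nt. In these 3 genes the proximal end carried most isoforms in every library, and the activated libraries, which held the distal end too, listed more isoforms of the exon. The distal ends of Nfkb2 and Eif3c were followed by an A-rich stretch, and that of Ncaph2 was not. Of the 6 exons of complete exchange towards the distal end (2610001J05Rik, Btla, Galns, Rpp30, Shoc2 and Traf6), Btla had most isoforms. Btla, an inhibitory receptor of lymphocytes, ended at 1740 nt with 1 isoform in naive cells and at 2526 nt with 3 isoforms in undivided cells and 1 in 2-division cells. Traf6, a ubiquitin ligase of receptor signaling, ended at 1962 nt in naive cells and at 4283 nt with 1 isoform in each activated library.

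Exons that kept both ends in every library were led by Srsf7, Eef2, Rbm39, Ddx5, Eef1a1 and Ccnl2. Srsf7, an SR protein of splicing, had 14, 12 and 9 isoforms at 290 nt and 3, 1 and 1 at 1514 nt. Ddx5, an RNA helicase, had 7, 10 and 5 at 708 nt and 5, 1 and 1 at 1901 nt. Rbm39 had 3, 4 and 2 at 250 nt and 10, 5 and 7 at 944 nt in its usual last exon. The elongation factor genes Eef1a1 and Eef2 had most isoforms at the distal end in every library, with 5, 10 and 8 at 403 nt for Eef1a1 and 2, 14 and 12 at 609 nt for Eef2. Srsf7 and Ddx5 listed their longer form with fewer isoforms in either activated library, and the end itself was present in all 3.

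**Figure D4:**
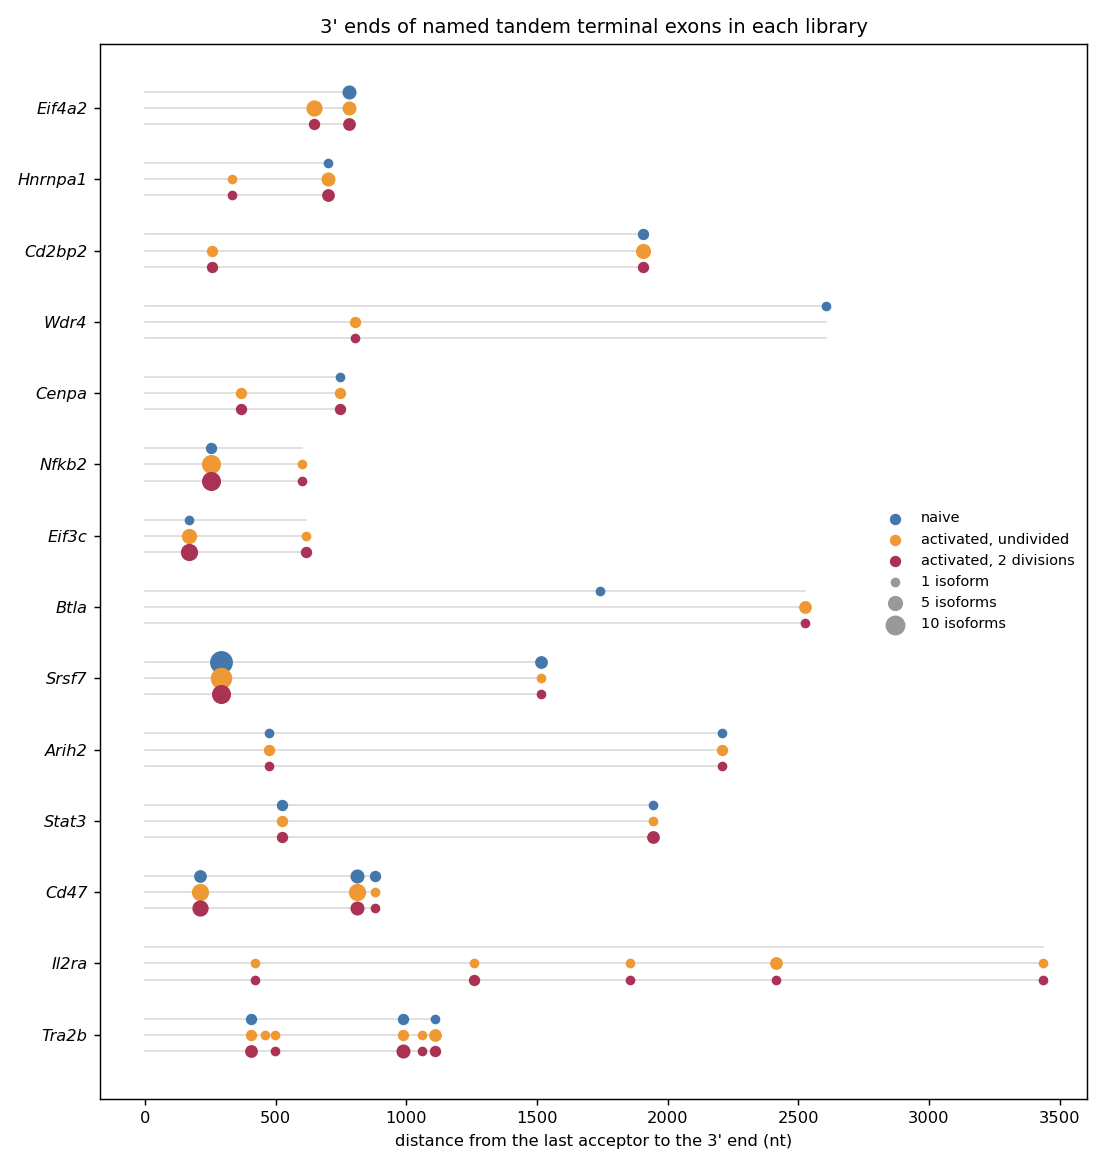
Merged 3′ ends of 14 named tandem terminal exons, as the distance in nt from the last acceptor (x axis), with 1 row per library for each gene and the size of a point for the number of isoforms. Eif4a2, Hnrnpa1, Cd2bp2, Wdr4 and Cenpa have no point at the proximal end in naive cells, Nfkb2 and Eif3c none at the distal end, Srsf7, Arih2 and Stat3 have both ends in all 3 libraries, and Il2ra has no naive point.

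Mean terminal exon length gave the net direction. A member was called shorter or longer when the mean over its isoforms differed by over 100 nt between 2 libraries, and by construction no other terminal exon could be called. Of 1303 members found in both naive and undivided cells, 518 (39.8%) were shorter in undivided cells, where 13.1% of all 3961 terminal exons in both libraries were, and 226 (17.3%) were longer, where 5.71% of all were. From naive cells to 2 divisions, 510 of 1248 members (40.9%) were shorter beside 13.7% of all 3733, and 179 (14.3%) were longer beside 4.8% of all. From undivided cells to 2 divisions, 391 of 1456 members (26.9%) were shorter beside 8.4% of all 4653, and 322 (22.1%) were longer beside 6.92% of all. Since the members were selected on these ends, their shares are set beside the background and nothing is read from the gap. Within the members, the shorter ones were 69.6% (66.2% to 72.9%) of those that moved from naive to undivided cells, 74.0% (70.6% to 77.3%) from naive cells to 2 divisions and 54.8% (51.1% to 58.5%) between the activated libraries. At exons with the same number of isoforms in both libraries the shares were 71.0% (98 of 138), 76.6% (111 of 145) and 56.5% (91 of 161). The median difference over all members was -40.2, -49.4 and -0.5 nt. With the longest terminal exon of each library in place of the mean, the share from naive to undivided cells was 54.5%, and with the shortest it was 80.0%. Between the activated libraries the direction turned with this choice, from 65.4% by the longest to 48.6% (44.1% to 53.2%) by the shortest. The undivided library listed most isoforms per member, and neither extreme was compared at equal numbers of isoforms.

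Genome sequence had no part in the choice of members. AATAAA or ATTAAA stood in the 50 nt before 839 of 1701 proximal ends on the reference chromosomes (49.3%, 46.9% to 51.7%), 448 of 914 middle ends (49.0%, 45.7% to 52.3%) and 1254 of 1701 distal ends (73.7%, 71.6% to 75.8%). For the 6561 terminal exons with 1 end the share was 64.9% (63.7% to 66.0%). The signal ended a median of 16 nt before proximal and 15 nt before distal ends. The search ran on the strand of the transcript, and an end was counted once however many hexamers its window held. In windows of the same length midway between the ends of members with 2 ends at least 300 nt apart, 30 of 755 (3.97%, 2.70% to 5.62%) held one. Proximal ends thus carried the signal less often than distal ends and far more often than the sequence between the ends. Both outermost ends had a signal in 646 members (38.0%), the distal end alone in 608 (35.7%), the proximal end alone in 193 (11.3%) and neither in 254 (14.9%).

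An A-rich stretch of the genome, 12 A or more among the 20 nt past the end, where an oligo(dT) primer can anneal inside a transcript, followed 456 of 1701 proximal ends (26.8%, 24.7% to 28.98%), 24.7% of middle ends and 320 distal ends (18.8%, 17.0% to 20.8%). Midway between the ends it was found at 3 of 755 positions (0.397%, 0.0820% to 1.16%). Ends with such a stretch and no signal made up 23.8% of proximal, 21.6% of middle and 14.8% of distal ends, and ends with neither feature 26.9%, 29.4% and 11.5%. Among ends found in 2 or 3 libraries, 54.2% of proximal and 78.8% of distal ends had a signal, and 27.3% and 15.04% an A-rich stretch. Proximal ends backed by 1 isoform in all had a signal in 41.7% and an A-rich stretch in 26.6%, and distal ones in 64.2% and 25.5%. The signal share was thus higher with several libraries at both ends, and the A-rich share was lower at distal ends and alike at proximal ones. Proximal ends listed in the naive library alone had the highest A-rich share, 32.6% (25.1% to 40.9%) of 144, next to 23.6% (18.9% to 28.8%) of the 297 of undivided cells alone and 25.6% (20.5% to 31.2%) of the 270 of 2 divisions alone, with overlapping intervals. Among distal ends listed in 1 library alone, A-rich stretches followed 30.8% (25.4% to 36.6%) of the 276 of the naive library, 16.5% (11.97% to 21.8%) of the 237 of the undivided one and 28.2% (20.7% to 36.8%) of the 131 of the 2-division one, so that the naive and undivided intervals did not overlap. Among middle ends the shares were 34.7% of 72, 15.5% of 148 and 24.5% of 110. With A-rich ends left out, 69.0% of the members that moved from naive to undivided cells were shorter. Without A-rich ends 1184 tandem terminal exons were left, and with signal-bearing ends alone 814.

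The annotation placed 91.1% of proximal and 84.8% of distal ends in 3′ UTRs. Of proximal ends, 5.17% lay in annotated coding sequence, as in Eprs, Dkc1, Atrx and Ash1l. Eprs, a tRNA synthetase of glutamate and proline, had 2, 6 and 8 isoforms at such an end at 105 nt and 1, 1 and 0 at 263 nt. Of distal ends 9.41% lay outside the annotated gene, as in Lbr and Ddx21. Within 24 nt of an annotated transcript end lay 29.5% (27.3% to 31.7%) of proximal ends, 21.4% (18.8% to 24.2%) of middle ends, 66.0% (63.7% to 68.2%) of distal ends and 67.1% (66.0% to 68.3%) of the ends of exons with 1 end. Among ends of 2 or 3 libraries the shares were 33.2%, 27.1%, 72.1% and 77.5%. Of the 1701 members on reference chromosomes, 1643 (96.6%) began at an annotated last acceptor, and 1064 (62.6%) had annotated tandem ends there. Proximal ends were thus less often annotated than distal ends, also where several libraries listed them.

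**Figure D5:**
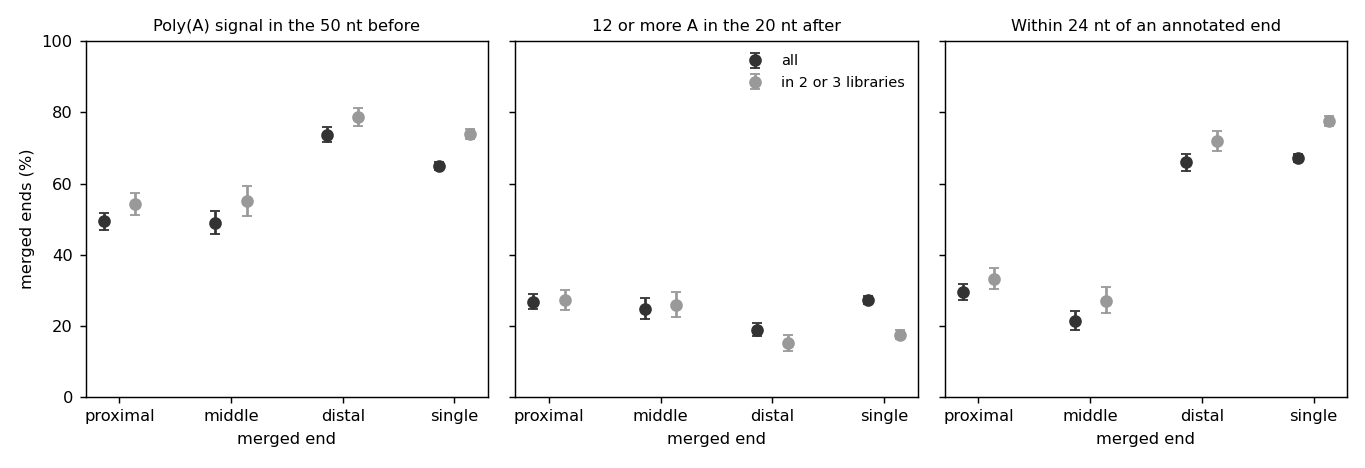
Share in percent of merged ends with AATAAA or ATTAAA in the 50 nt before them, with 12 or more A in the 20 nt after them, and within 24 nt of a GENCODE M21 transcript end, for proximal, middle and distal ends of tandem terminal exons and for the end of exons with a single end. Black points are all ends, grey points ends found in 2 or 3 libraries, and bars are 95% Clopper-Pearson intervals. Distal ends stand at 73.7% for the signal and 66.0% for the annotation, proximal ends at 49.3% and 29.5%.

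The sequence that a distal end adds was richer in A and T than the part before the proximal end. In the 1466 members with the proximal end beyond the stop codon, A and T made up 58.1% of the bases between the outermost ends (1358450 nt in all), 56.0% of the 3′ UTR before the proximal end (670774 nt) and 54.3% of the 3′ UTR of 4829 exons with 1 end. The AU-rich pentamer ATTTA stood at 2.03 sites per kb between the ends, 1.72 per kb before the proximal end and 1.64 per kb in exons with 1 end. At least 1 ATTTA lay in 66.0% of the added stretches, which had a median length of 681.5 nt, and in 42.6% of the stretches before the proximal end. The nonamer TTATTTATT, which contains the pentamer, stood at 0.0537, 0.0477 and 0.0735 sites per kb, and the Pumilio element TGTANATA at 0.248, 0.219 and 0.251. The reverse complements of bases 2 to 8 of 10 miRNAs known from T cells were searched as letters. Those of miR-181 (TGAATGT) stood at 0.162 per kb between the ends and 0.145 before the proximal end, those of miR-155 (AGCATTA) at 0.0589 and 0.0552, those of miR-17 (GCACTTT) at 0.0972 and 0.121, those of miR-29 (TGGTGCT) at 0.109 and 0.0909, and those of let-7 (CTACCTC) at 0.0596 and 0.0522. Those of miR-18a stood at 0.0626 per kb between the ends and 0.0641 before the proximal end, and those of miR-23 at 0.127 and 0.133. In the same order, miR-27 gave 0.116 and 0.133, miR-142-3p 0.0412 and 0.0253, and miR-146 0.0994 and 0.0999. A planned search for miR-150 was not run. The added stretches were longer, and more of them held a site, 12.9% against 6.41% for miR-181, 9.0% against 4.09% for miR-29 and 5.05% against 2.52% for miR-155. The search read the transcript strand, and a match describes letters and not binding.

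Gene groups differed in how many of their genes had a tandem terminal exon, and so did their numbers of isoforms. Over all genes with a multi-exon isoform, 1635 of 6631 (24.7%) had one, with a median of 3 isoforms per gene. The share was 37.0% among genes with 4 to 7 isoforms and 59.3% among genes with 8 or more. By group it was 16 of 25 for cytokine receptors and signaling (median of 7 isoforms), 18 of 29 for translation initiation (8), 24 of 40 for RNA binding and splicing (15), 11 of 21 for cleavage and polyadenylation (5), 15 of 31 for membrane trafficking (5), 12 of 29 for the T cell receptor and costimulation (8), 9 of 23 for surface and adhesion (8), 11 of 30 for the cell cycle (5.5), 7 of 25 for ubiquitin ligases (3), 7 of 26 for mRNA decay and AU-rich binding (3) and 2 of 13 for naive-state transcription factors (8). The 2 with the lowest medians thus also stood near the share of all genes.

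From naive to undivided cells, RNA-binding and splicing genes were shorter at 16 of 27 exons and longer at 2. From naive cells to 2 divisions they were shorter at 10 and longer at 4 of 25. Hnrnpa2b1, Hnrnpk and Hnrnpdl entered these counts from more than 1 acceptor, with shared ends. Rbm39 entered from more than 1 acceptor too. The counts are therefore not independent and were not tested. Of all members, 39.8% were shorter and 17.3% longer in undivided cells, and 40.9% and 14.3% in 2-division cells. Hnrnpk was shorter in both at its exon from 58392476 on chromosome 13, with 4, 11 and 7 isoforms at 525 nt and 2, 2 and 2 at 1238 nt, and mean lengths of 845, 611 and 686 nt. Hnrnpa2b1 had 4 tandem terminal exons that share ends, and the one from 51463254 on chromosome 6 listed 6, 14 and 15 isoforms at 487 nt and 1, 0 and 0 at 2131 nt. Srsf5 kept both 454 nt (4, 4 and 3 isoforms) and 780 nt (5, 6 and 5). Tra2b had 6 ends between 406 and 1109 nt, of which the undivided library held all 6 with 10 isoforms and the naive library 3 with 5 isoforms. Of the cleavage and polyadenylation genes, 5 of 9 exons were shorter and 2 longer in undivided cells. Cstf2, which binds RNA downstream of the cleavage site, was listed in activated cells only, with 0 and 2 isoforms at 225 nt in undivided cells and in 2-division cells and 1 and 1 at 2590 nt.

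In cytokine signaling, 6 of 12 exons were shorter and 2 longer in undivided cells, and 4 of 11 were shorter and 2 longer in 2-division cells. These lie near the shares of all members, of which 39.8% were shorter and 17.3% longer in undivided cells and 40.9% and 14.3% in 2-division cells. Stat3 had 2, 2 and 2 isoforms at 525 nt and 1, 1 and 3 at 1944 nt. Il4ra, the interleukin-4 receptor chain, had 3, 5 and 1 at 2444 nt and 1, 0 and 0 at 3949 nt. Jak1, a kinase of cytokine receptors, had 6, 1 and 1 isoforms at 545 nt and 2, 0 and 0 at 1224 nt. Il2ra, which encodes the interleukin-2 receptor alpha chain, was listed in activated cells only, and each of its 5 ends, from 421 to 3435 nt, was found in both activated libraries with 1 to 3 isoforms. AATAAA stood before its ends at 2415 and 3435 nt alone.

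The T cell receptor and costimulation genes were longer more often than shorter. From naive to undivided cells, 1 of 11 exons was shorter and 5 were longer, and from naive cells to 2 divisions 2 and 4 of 11. Of all members, 39.8% were shorter and 17.3% longer in undivided cells, and 40.9% and 14.3% in 2-division cells. Cd5, an inhibitory coreceptor, ended at its main exon at 447 nt with 6, 8 and 8 isoforms, and its end at 1238 nt had 0, 2 and 1. Cd4 had 1, 1 and 0 isoforms at 519 nt and 2, 4 and 4 at 1572 nt. Cblb, a ubiquitin ligase that dampens receptor signaling, had 1, 3 and 0 at 953 nt and 0, 1 and 1 at 3609 nt. Cd3d went the other way, with 1, 1 and 1 isoforms at 150 nt and 1, 0 and 0 at 1603 nt. The ubiquitin ligases were longer at 4 against shorter at 2 of 7 exons in undivided cells, and at 3 against 1 of 5 in 2-division cells. Cblb is in both groups and was longer in both comparisons. Cd5 entered the T cell receptor counts from more than 1 acceptor, with shared ends, so the counts are not independent. With 11 and 7 exons, these counts are small and were not tested.

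Of the surface and adhesion genes, 8 of 10 exons stayed within 100 nt between naive and undivided cells, where 42.9% of all members did. In 2-division cells 4 of 10 were shorter than in naive cells and none was longer, beside 40.9% and 14.3% of all members. Cd47, the surface ligand that protects cells from phagocytosis, kept its ends at 211 nt (3, 7 and 6 isoforms), 813 nt (4, 7 and 4) and 879 nt (2, 1 and 1) in all libraries. The end at 211 nt had AATAAA, and both others had no signal and an A-rich stretch after them. In translation initiation, 6 of 18 exons were shorter and 3 longer in undivided cells, and 8 and 2 of 18 in 2-division cells. These lie near the shares of all members, which were 39.8% and 17.3% in undivided cells and 40.9% and 14.3% in 2-division cells. Eif4g2 had 4, 9 and 10 isoforms at 825 nt and 2, 2 and 0 at 2027 nt, and Eif4a1 kept both 318 nt (2, 3 and 2) and 681 nt (2, 4 and 3). In membrane trafficking 5 of 13 exons were shorter and 1 longer in either activated library, a share of shorter exons near that of all members. The Golgi and endosome genes Rab1a (807 and 2207 nt) and Stx7 (657 and 1332 nt) had 1 isoform at each end in each library. H2-D1 among the surface genes and Eif4a2 among those of translation initiation entered the counts from more than 1 acceptor, with shared ends.

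In the cell cycle group, 2 of 6 exons were shorter and 1 longer in undivided cells, and 3 were shorter and none longer in 2-division cells. Of all members, 39.8% were shorter and 17.3% longer in undivided cells, and 40.9% and 14.3% in 2-division cells. With 6 exons here and in the mRNA decay group, these counts are small and were not tested. Ccnb1, the mitotic cyclin B1, was listed in activated cells only, with 1 and 2 isoforms at 218 nt, 2 and 1 at 586 nt and 1 and 2 at 1047 nt. Rrm2, a subunit of ribonucleotide reductase, had 1 naive isoform, at 1011 nt, and ends at 211, 267, 1011 and 1052 nt in both activated libraries. Of the mRNA decay genes, 2 of 6 exons were shorter and 2 longer in undivided cells. Cnot2, a subunit of the CCR4-NOT deadenylase, had 1, 3 and 1 isoforms at 509 nt and 3, 1 and 2 at 1121 nt. Zfp36l1, which binds AU-rich elements, had 5 ends in naive cells between 1281 and 2789 nt with 1 isoform each, 2 of them in undivided cells and 1 in 2-division cells, and the 4 shorter ones had an A-rich stretch and no signal. The naive-state factor Lef1 listed 10, 6 and 4 isoforms at 1246 nt and kept this distal end as its most common one in every library.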

How the data were processed

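Per the methods, reads were turned into consensus sequences by ccs, stripped of primers by lima, kept if they ended in poly(A), clustered with isoseq3, aligned with pbmm2, collapsed to isoforms with isoseq3 and classified by SQANTI3. The submitters' processing notes name minimap2, Subread, mm10 and GRCm38. The deposited files give exon positions on GRCm38, and no read counts, abundances or depths were used here. Of neighbouring ends of isoforms with one chain of introns in a library, 2.54%, 4.95% and 4.16% (naive, undivided, 2 divisions) lay within 24 nt.

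Single-exon models were left out. On the reference chromosomes, 96.2% of 68209 introns were annotated in GENCODE M21 and 98.3% of last acceptors followed AG. Ends with sequence or annotation were counted on those chromosomes (1701 members). A merged end stands at the lower median of its isoforms. The members and gene lists were chosen with earlier results of these data known.

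Named were the exons with the most ends and the longest distances, those leading each layout of 2 ends by isoforms, the 3 nearest each side of the distance limit, list members with at least 4 isoforms and the paper's long-read panel genes. A few exons singled out after their values were seen are given as such, as are examples of ends in coding sequence or outside the gene. Python 3.11.15, numpy 2.4.6, scipy 1.17.1 and matplotlib 3.10.9 were used, and the grouping code was tested on simulated exons. No p-value was computed, as each condition had 1 library. Some genes met the naming rule and are not reported here.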

Additional observations from a re-analysis of the deposited data

Results flagged for a closer look

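Unspliced models, which the choice of members did not use, also ended in tandem terminal exons. In all, 226 of them did, and 216 (95.6%) stopped within 24 nt of a merged end that spliced isoforms had set. In the naive library 41 of 45 such models lay at a merged end, in the undivided library 80 of 83 and in the 2-division library 95 of 98. Distal ends received 23, 42 and 59 of them and proximal ends 10, 20 and 18. They were taken up because they lie in data outside the main measurement, and with no control library no background level is known.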

How the results depend on the processing

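No paired analysis was possible because each condition had 1 library, and leaving out a replicate does not apply. Over 148 values of 14 results under other settings, 94 stayed within the limits of the reported value, 53 moved and 1 reversed. The limit was the 95% interval for a share and a looser one for the number of members, where 1184 without A-rich ends counted as staying. Merging ends within 10 or 50 nt left the shares of shorter members unchanged, since mean lengths do not use merged ends. Ends found in 2 or more libraries, or with 2 or more isoforms, left 821 and 852 tandem terminal exons (15.4% and 15.4% of terminal exons), with median distances of 565 and 570 nt. The share with several ends was then 65.0% and 64.6% in the naive library, 93.8% and 92.0% in the undivided library and 87.9% and 86.1% in the 2-division library, the signal share 52.8% and 53.0% at proximal and 77.1% and 77.9% at distal ends, and the A-rich share 15.3% and 14.9% at distal ends. Signal-bearing ends alone gave 814 members (13.5%), and leaving out A-rich ends gave 17.6% and several ends at 48.9% in the naive library. A least distance of 50 nt gave 21.9% and a median of 594 nt, and 200 nt gave 17.0% and 804.5 nt. The tandem share was 20.6% over isoforms with 3 or more exons, 18.2% without the 2-division library and 17.7% without the undivided library, and the median distance was 609.5 nt without the naive library. AATAAA alone stood before 35.0% of proximal and 59.4% of distal ends, and 10 further variants raised the shares to 71.6% and 84.7%. With 10 and 14 A in 20 nt the A-rich share was 32.2% and 18.2% at proximal and 22.0% and 16.2% at distal ends. The share of shifted members that were shorter was 54.5% by the longest and 80.0% by the shortest terminal exon from naive to undivided cells (73.2% for differences over 200 nt), and 65.6% and 78.5% from naive cells to 2 divisions. Between the activated libraries it was 65.4% by the longest and, reversed, 48.6% by the shortest. With members chosen from the other libraries only, an alternative chosen after seeing the data, the naive library held several ends at 48.2%. The causes were not tested. The number of isoforms limits which ends can be seen, and without read counts no usage of an end can be given.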
